A study of Mus musculus with 12 samples.

Results

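The genes described here are 10 interferon-induced antiviral effectors, namely Rsad2, Cmpk2, Samhd1, Mx1, Bst2, Rtp4, Eif2ak2, Ifi44, Xaf1 and Ifi27l2a. They were taken by name and read by their Ensembl identifiers from a table of 55414 gene records. All 10 were present. They were selected on their levels (CPM) in the LIP and CTL libraries of both days, with earlier results of these data in view, so the values and the p-values beside them describe these libraries and are not independent evidence.

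RNA was sequenced from splenic CD4+ T cells of male wild-type BALB/c mice aged 18 weeks. In the LIP group (ligature-induced periodontitis) a silk thread had been tied around an upper molar on each side, whereas the mice of the control group (CTL) were anesthetized without receiving a ligature. Day 0 cells were collected uncultured after negative selection, and day 2 cells had been cultured for 2 days with IL-2 and with antibodies to TCRβ and CD28. There were 3 libraries in each of the 4 groups, 12 in all, and they are named here by the number in their label: CTL 88, 89 and 94 and LIP 92, 93 and 94 on day 0, and CTL 92, 93 and 97 and LIP 90, 96 and 97 on day 2. In the treatment labels of day 2, anti-CD28 is replaced by anti-CD29 in CTL 93 and in LIP 96 and by anti-CD30 in both libraries numbered 97, and the labels and the study's methods give different concentrations of IL-2 and anti-TCRβ. The sources used here do not say whether a library came from 1 mouse or from a pool, so the spread between libraries may be partly technical.

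Type I interferons bind a receptor made of Ifnar1 and Ifnar2, which activates the kinases Jak1 and Tyk2. The signal passes to a complex that holds Stat2 and Irf9 and binds the interferon-stimulated response element (ISRE) of target genes, whereas interferon-γ acts mainly through the gamma-activated site (GAS). The induced proteins act at separate steps of a viral life cycle, and T cells themselves respond to interferon while they are being activated.

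The total expected counts were 6249018 to 7845676 per library on day 0 and 8691699 to 12866718 on day 2, and levels are given as CPM, each gene's share of the counts of its library after scaling with TMM factors over the 12 libraries. A count of 0 allowed up to 0.268 to 0.451 CPM, depending on the library (3 counts, counting error only). Cd4 was at 421 to 643 CPM and Cd8a at 0.105 to 2.24 CPM. On day 2, LIP 90 stood apart from the other LIP libraries, with a chi-square per gene of 48.3 and 38.6 against LIP 96 and LIP 97, which differed from each other by 11.9, and CTL 94 of day 0 lay among the LIP libraries on the first principal component. The summed level of 8 B cell markers was 1.43 CPM in LIP 90, 37.2 in LIP 96 and 36.1 in LIP 97, and 4.01, 4.65 and 23.5 CPM in CTL 92, 93 and 97 of day 2. The sum of 10 heat shock genes was 3419 to 3495 CPM in CTL and 1586 to 1719 CPM in LIP on day 0, and 5630 to 6519 CPM and 6995 to 8148 CPM on day 2. The part of B cells or of the heat shock difference in the results was not tested. In bulk RNA, fewer cells of a type and less RNA per cell cannot be told apart.

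The start sites of the members were examined first, because the ISRE is the sequence through which type I interferon acts on such genes. In the 250 bases before the canonical start of each gene in the GENCODE M39 annotation of GRCm39, the ISRE core was searched on both strands as GAAA, a pair of any bases and GAAA again (TTTC, a pair of any bases and TTTC on the opposite strand), and it was found in 3 of 10 members, namely Rsad2, Bst2 and Rtp4. Of 21770 windows of the same length before protein-coding genes, 3.32% held it. The GAS core TTCNNNGAA was found in 3 members, Bst2, Eif2ak2 and Samhd1, against 7.7% of all windows. The 3 windows with an ISRE core are shown 5′ to 3′ on the strand of the gene, ending at the base before its start, with the matched cores in capitals. Their positions are chr12:26506452-26506701 (minus strand) for Rsad2, chr8:71990115-71990364 (minus strand) for Bst2 and chr16:23428396-23428645 (plus strand) for Rtp4.
Rsad2: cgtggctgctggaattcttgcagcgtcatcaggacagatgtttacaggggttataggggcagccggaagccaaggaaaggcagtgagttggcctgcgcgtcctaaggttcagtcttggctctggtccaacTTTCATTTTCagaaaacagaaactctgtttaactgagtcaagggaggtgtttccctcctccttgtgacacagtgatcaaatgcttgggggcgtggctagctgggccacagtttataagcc
Bst2: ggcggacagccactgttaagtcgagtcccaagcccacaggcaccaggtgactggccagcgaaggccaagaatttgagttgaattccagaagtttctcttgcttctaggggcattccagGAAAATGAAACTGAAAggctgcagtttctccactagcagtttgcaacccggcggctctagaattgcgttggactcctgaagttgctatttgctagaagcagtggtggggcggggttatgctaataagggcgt
Rtp4: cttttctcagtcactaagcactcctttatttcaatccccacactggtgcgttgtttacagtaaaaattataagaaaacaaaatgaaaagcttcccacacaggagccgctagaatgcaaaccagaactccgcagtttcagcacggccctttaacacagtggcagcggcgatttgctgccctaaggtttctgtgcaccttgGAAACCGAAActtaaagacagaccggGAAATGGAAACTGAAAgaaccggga
The match of Rsad2 began 120 bases before the start and lay on the opposite strand. Those of Bst2 began at 132 and 126 bases and overlapped each other, and those of Rtp4 began at 51, 25 and 19 bases, the last pair overlapping. The other 7 windows held no match to these letters.

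In counts per kilobase of merged exons, which allows levels of different genes to be compared, Samhd1 was the most abundant member in CTL cells of day 0 (60.3 ± 2.79 CPM per kb, SD, n = 3), followed by Ifi27l2a (29.4 ± 6.45), Bst2 (8.29 ± 1.21) and Xaf1 (4.18 ± 0.0480). Rtp4 (2.34 ± 0.449), Eif2ak2 (1.76 ± 0.382) and Cmpk2 (1.19 ± 0.310) followed, each of them differing from its neighbour by less than the sum of their SDs. Ifi44 (0.659 ± 0.0811), Mx1 (0.3197 ± 0.240) and Rsad2 (0.0713 ± 0.0695) were lowest, and Mx1 and Rsad2 did not differ beyond their spread. In LIP cells of day 2 the order had Ifi27l2a first (402 ± 80.5 CPM per kb), then Samhd1 (223 ± 59.1) and Bst2 (58.4 ± 21.8). Eif2ak2 (21.1 ± 7.53), Ifi44 (16.4 ± 12.7) and Xaf1 (12.9 ± 6.02) did not differ beyond their spread. Nor did neighbours among Mx1 (3.82 ± 2.50), Cmpk2 (1.41 ± 0.393), Rtp4 (1.36 ± 1.03) and Rsad2 (0.572 ± 0.582), which were lowest. In LIP cells of day 0 the levels ran from 61.1 ± 1.57 CPM per kb (Samhd1) to 0.273 ± 0.109 (Rsad2), and in CTL cells of day 2 from 176 ± 40.3 (Ifi27l2a) to 0.0499 ± 0.0487 (Rsad2).

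**Figure D1:**
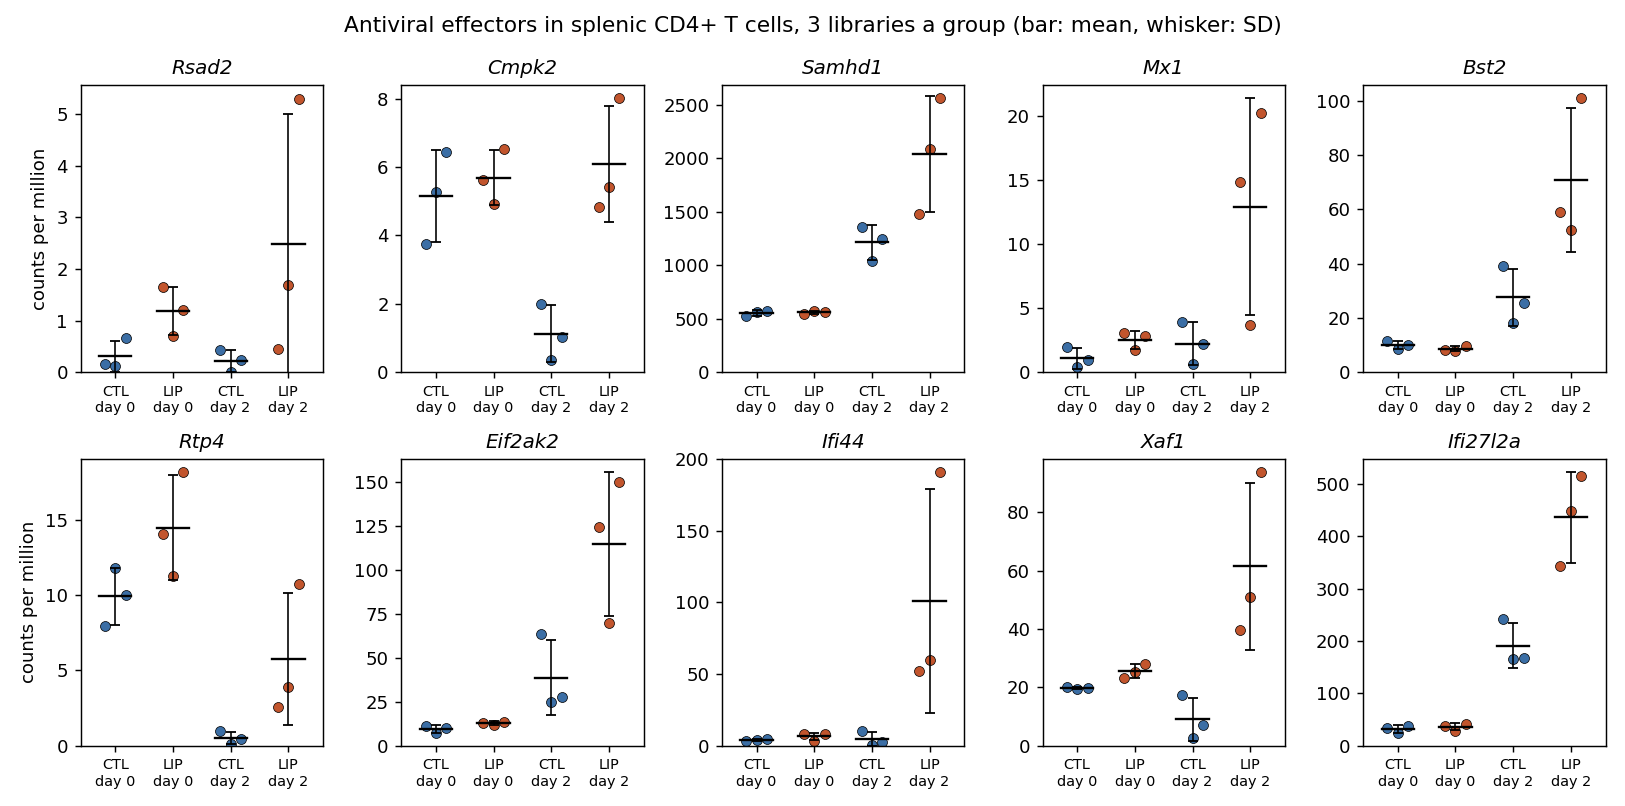
CPM (y axis, linear from 0) of the 10 members in the libraries of the 4 groups (x axis), with a point for each library, a bar for the group mean and a whisker for the SD (n = 3). On day 2 the LIP libraries lie above the CTL libraries in every panel except that of Mx1, where LIP 96 (3.65 CPM) lies below CTL 92 (3.90 CPM), and on day 0 the groups are separate for Rsad2, Xaf1 and Eif2ak2 and overlap in the other panels.

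The first members act on nucleotides. Rsad2 encodes viperin, a radical SAM enzyme that makes a chain-terminating analog of CTP, and Cmpk2 encodes a mitochondrial nucleoside monophosphate kinase. The genes are neighbours on mouse chromosome 12, with Rsad2 at 26492745 to 26506451 on the minus strand and Cmpk2 at 26519203 to 26529836 on the plus strand (GRCm39), 12752 bases apart. The counts of Rsad2 on day 0 were 1, 1 and 5 in the CTL libraries (88, 89 and 94) and 12, 5 and 9 in the LIP libraries (92, 93 and 94). On day 2 they were 4, 0 and 2 in CTL 92, 93 and 97 (0.422, 0 and 0.227 CPM) and 5, 18 and 41 in LIP 90, 96 and 97 (0.447, 1.68 and 5.30 CPM). On the CPM scale every LIP library lay above every CTL library of its day, on day 0 at 1.65, 0.702 and 1.20 CPM against 0.150, 0.120 and 0.656 CPM. No CTL library held more than 5 counts, LIP 97 of day 2 held the most, and the filter on low counts removed the gene from the comparison of groups on both days.

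Cmpk2 was at 3.76, 5.29 and 6.43 CPM in CTL 88, 89 and 94 and at 5.64, 4.91 and 6.53 CPM in LIP 92, 93 and 94 on day 0, and the groups overlapped. On day 2 it was at 2.00, 0.358 and 1.02 CPM in CTL 92, 93 and 97 and at 4.83, 5.42 and 8.02 CPM in LIP 90, 96 and 97, so that every LIP library lay above every CTL library. LIP exceeded CTL by a log2 fold change of 0.14 ± 0.24 (SE) on day 0 and 2.38 ± 0.48 on day 2. With culture, Cmpk2 fell by 2.18 on the log2 scale in CTL (adjusted p = 0.00129, edgeR quasi-likelihood test, Benjamini-Hochberg), and its log2 difference in LIP was 0.07 ± 0.25 (adjusted p = 0.825).

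Samhd1 encodes a triphosphohydrolase that breaks down deoxynucleotides, and it was the most highly counted member. It was at 523, 563 and 570.3 CPM in CTL and at 543, 571 and 563 CPM in LIP on day 0, a log2 fold change of 0.02 ± 0.07. On day 2 Samhd1 was at 1360.2, 1036 and 1246 CPM in CTL 92, 93 and 97 and at 1483, 2087 and 2562 CPM in LIP 90, 96 and 97, without overlap, and the log2 fold change was 0.74 ± 0.22. It rose with culture by a log2 fold change of 1.12 ± 0.11 in CTL (adjusted p = 6.71e-06, edgeR quasi-likelihood test, Benjamini-Hochberg) and 1.86 ± 0.19 in LIP (adjusted p = 4.76e-05).

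Further members act on virus particles or at membranes. Mx1 encodes a dynamin-like GTPase that restricts influenza viruses, and many inbred laboratory mouse strains carry a defective allele, about which gene counts say nothing. It was at 1.95, 0.3604 and 0.919 CPM in CTL 88, 89 and 94 and at 3.02, 1.68 and 2.80 CPM in LIP 92, 93 and 94 on day 0. On day 2 Mx1 was at 3.90, 0.596 and 2.15 CPM in CTL 92, 93 and 97 and at 14.8, 3.65 and 20.2 CPM in LIP 90, 96 and 97. The groups overlapped on both days, through LIP 93 on day 0 and through LIP 96 on day 2. LIP exceeded CTL by a log2 fold change of 1.27 ± 0.49 on day 0 and of 2.49 ± 0.69 on day 2, and Mx1 rose with culture in LIP (log2 fold change 2.32 ± 0.59, adjusted p = 0.00717, edgeR quasi-likelihood test, Benjamini-Hochberg), whereas in CTL the value was 1.09 ± 0.66, and 0.40 to 1.78 over 10 alternatives, of which no filter on low counts (adjusted p = 0.0344) and leaving out CTL 93 of day 2 (0.0401) gave a call (adjusted p = 0.161 as reported, over a range of 0.0344 to 0.638). The day 0 value was 1.97 without CTL 88 and 0.82 without CTL 89.

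Bst2 encodes tetherin, which holds budding virions at the cell surface and also marks plasmacytoid dendritic cells in mice. It was at 11.6, 8.65 and 9.98 CPM in CTL and at 8.25, 7.86 and 9.73 CPM in LIP on day 0, the only tested member that was lower in LIP (log2 fold change -0.21 ± 0.18, or -0.11 without CTL 88 and -0.32 without CTL 89). On day 2 Bst2 was at 38.9, 18.0 and 25.6 CPM in CTL 92, 93 and 97 and at 58.9, 52.5 and 101 CPM in LIP 90, 96 and 97, without overlap, a log2 fold change of 1.35 ± 0.33. The 8 plasmacytoid dendritic cell markers, Bst2 included, summed to 159.9 to 174 CPM in CTL and 149 to 208 CPM in LIP on day 2. Of the 5 tested, Bst2, Tcf4, Ccr9 and Runx2 were higher in LIP, Bst2 alone at an unadjusted p under 0.05, and Irf8 was lower. Among those not tested, Siglech was at 0 counts in the LIP libraries of day 2 and at 0, 0 and 1 count in the CTL libraries. Cox6a2 had 1, 50 and 14 counts in LIP 90, 96 and 97 against 1, 0 and 0 in CTL 92, 93 and 97, and Ly6d had 0, 1 and 3 counts in LIP against 0 in each CTL library. The part of these cells in the level of Bst2 was not tested. Bst2 rose with culture by a log2 fold change of 1.44 ± 0.26 in CTL (adjusted p = 0.000449, edgeR quasi-likelihood test, Benjamini-Hochberg) and 3.02 ± 0.27 in LIP (adjusted p = 2.31e-05).

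Rtp4 encodes a chaperone that carries G protein-coupled receptors to the membrane. It was at 7.97, 11.8 and 9.98 CPM in CTL and at 14.0, 11.2 and 18.1 CPM in LIP on day 0. On day 2 Rtp4 was at 0.949, 0.119 and 0.454 CPM in CTL 92, 93 and 97 (9, 1 and 4 counts) and at 2.59, 3.93 and 10.7 CPM in LIP 90, 96 and 97. The groups overlapped on day 0, through LIP 93, and were separate on day 2, and every library of day 2 lay below every library of its group on day 0. LIP exceeded CTL by a log2 fold change of 0.54 ± 0.20 on day 0, or 0.35 without LIP 94, and of 3.40 ± 0.73 on day 2. With culture, Rtp4 fell by 4.23 on the log2 scale in CTL (SE 0.43, adjusted p = 5.66e-06, edgeR quasi-likelihood test, Benjamini-Hochberg) and by 1.40 in LIP (SE 0.46, adjusted p = 0.0233), where the call was lost without LIP 92 or LIP 94 of day 0 or LIP 96 of day 2 (adjusted p = 0.0593, 0.0905 and 0.0725, over a range of 0.000648 to 0.0905) and the log2 difference was -2.14 without LIP 97 of day 2. The annotated gene overlaps Gm45338 on the same strand and Masp1 on the opposite strand, and the strand setting of the counting is not given in the sources used here, so reads of these genes may be shared.

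Eif2ak2 encodes PKR, a kinase that is activated by double-stranded RNA and stops translation. It was at 11.1, 7.21 and 10.4 CPM in CTL 88, 89 and 94 and at 13.2, 11.9 and 13.7 CPM in LIP 92, 93 and 94 on day 0, and at 63.3, 25.0 and 27.7 CPM in CTL 92, 93 and 97 and 124, 70.0 and 150.2 CPM in LIP 90, 96 and 97 on day 2. The groups were separate on both days, although LIP 96 lay close to CTL 92 on day 2. The excess of LIP over CTL on the log2 scale was 0.45 ± 0.18 on day 0, or 0.27 without CTL 89, and 1.56 ± 0.39 on day 2. Eif2ak2 rose with culture by a log2 fold change of 2.01 ± 0.34 in CTL (adjusted p = 0.000318, edgeR quasi-likelihood test, Benjamini-Hochberg) and 3.13 ± 0.27 in LIP (adjusted p = 2.10e-05). It overlaps Gpatch11 on the opposite strand.

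The remaining members are known mainly as interferon-induced genes. Ifi44 encodes a cytoplasmic protein whose biochemical role is little known. It was at 3.61, 3.96 and 4.59 CPM in CTL and at 8.11, 3.51 and 8.13 CPM in LIP on day 0, where LIP 93 lay below all CTL libraries. On day 2 Ifi44 was at 10.0, 0.596 and 2.72 CPM in CTL 92, 93 and 97 and at 51.9, 60.0 and 191 CPM in LIP 90, 96 and 97. The groups did not overlap, and this was the largest fitted difference among the tested members, a log2 fold change of 4.46 ± 0.80, against 0.70 ± 0.31 on day 0. In LIP Ifi44 rose with culture by a log2 fold change of 3.91 ± 0.58 (adjusted p = 0.000385, edgeR quasi-likelihood test, Benjamini-Hochberg), and in CTL the value was 0.13 ± 0.65 (adjusted p = 0.865), or -1.28 without CTL 92.

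Xaf1 encodes a protein that opposes the apoptosis inhibitor XIAP. On day 0 it was at 19.99, 19.6 and 19.95 CPM in CTL and at 23.2, 25.4 and 28.0 CPM in LIP, without overlap, and it had the smallest unadjusted p of the members (log2 fold change 0.37 ± 0.11, adjusted p = 0.174, edgeR quasi-likelihood test, Benjamini-Hochberg, 0.105 to 0.890 over 10 alternatives). On day 2 Xaf1 was at 17.3, 2.74 and 7.14 CPM in CTL 92, 93 and 97 and at 39.7, 50.8 and 93.8 CPM in LIP 90, 96 and 97, a log2 fold change of 2.73 ± 0.56. With culture Xaf1 fell by 1.13 on the log2 scale in CTL (SE 0.43, adjusted p = 0.0348, edgeR) and rose in LIP by a log2 fold change of 1.24 ± 0.29 (adjusted p = 0.00483). The fall in CTL was called under 4 of 10 alternatives. It was not called with DESeq2 (adjusted p = 0.138, over a range of 3.79e-08 to 0.138) or without CTL 88, 89 or 94 of day 0 (adjusted p = 0.0762, 0.0609 and 0.0643) or CTL 93 or 97 of day 2 (0.0639 and 0.0972), in edgeR's test. The log2 difference was -1.999 without CTL 92 of day 2 and -0.70 without CTL 93.

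Ifi27l2a encodes a small hydrophobic membrane protein. It was at 33.2, 24.4 and 38.2 CPM in CTL and at 38.5, 28.8 and 41.3 CPM in LIP on day 0, with overlap. On day 2 Ifi27l2a was at 242, 166 and 167 CPM in CTL 92, 93 and 97 and at 343, 449 and 516 CPM in LIP 90, 96 and 97, without overlap. LIP exceeded CTL by 0.19 ± 0.17 on the log2 scale on day 0 and by 1.18 ± 0.21 on day 2. The day 0 difference was 0.019 without CTL 89 and 0.084 without LIP 94, and 0.35 without CTL 94 and 0.33 without LIP 93. With culture it rose by a log2 fold change of 2.57 ± 0.19 in CTL (adjusted p = 6.42e-07, edgeR quasi-likelihood test, Benjamini-Hochberg) and 3.57 ± 0.20 in LIP (adjusted p = 2.09e-06). It overlaps Ifi27 on the opposite strand.

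LIP and CTL were compared on day 0 to see whether freshly purified cells differed. Of the 9 tested members (all but Rsad2), 8 were higher in LIP (51.9% of the 14064 genes tested were), with a median log2 fold change of 0.37 against 0.0088 over all genes. None passed an adjusted p of 0.05 in edgeR's quasi-likelihood test (0 of 9, against 0.427% of all genes), and DESeq2 also called 0. At an unadjusted p under 0.05, 5 were higher, namely Mx1, Ifi44, Rtp4, Eif2ak2 and Xaf1, against 6.67% of all genes. The groups were separate for 2 of the tested members, Xaf1 and Eif2ak2, where 9.27% of all genes were separate in this direction. LIP 94 held the highest value in 6 of 10 members and CTL 89 the lowest in 5.

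On day 2, which addresses whether stimulated cells differed, all 9 tested members (again without Rsad2) were higher in LIP (49.2% of 14041 genes were), with a median log2 fold change of 2.38 against -0.0058 over all genes. The smallest change was that of Samhd1 (0.74) and the largest that of Ifi44 (4.46). None passed the adjusted threshold in edgeR's quasi-likelihood test (0 of 9, against 0% of all genes), the adjusted p-values lying between 0.103 for Ifi27l2a and 0.174 for Samhd1. All 9 had an unadjusted p under 0.05, against 8.33% of all genes in this direction, and 8 of the 9 were without overlap, against 10.9%. DESeq2 called 8, all tested members but Mx1.

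**Figure D2:**
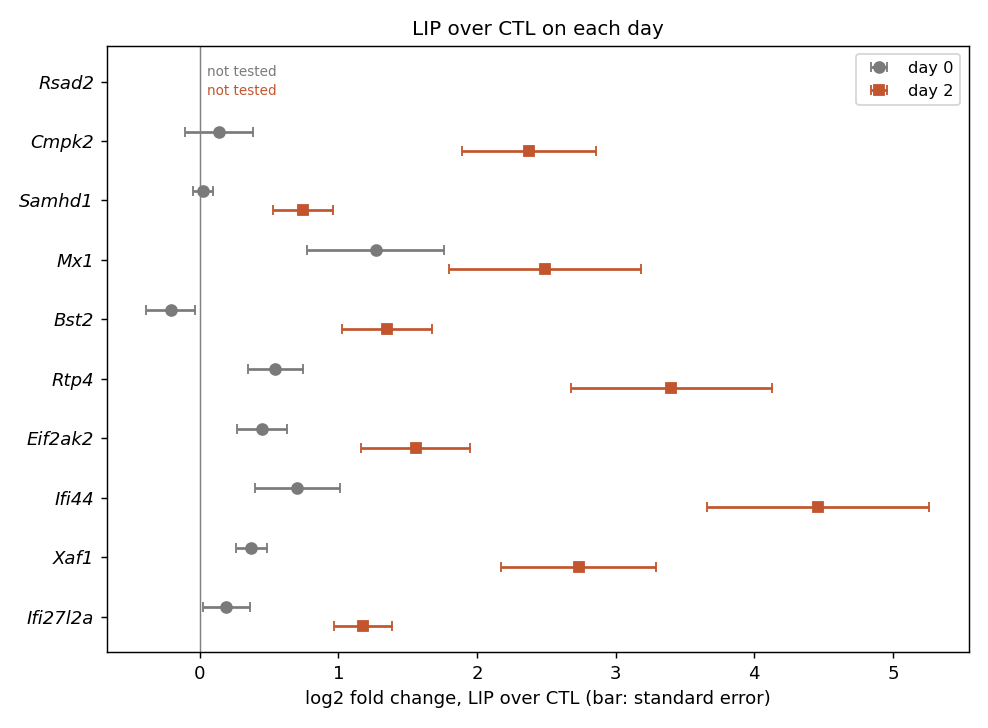
Log2 fold change of LIP over CTL (x axis) for each member (y axis) on day 0 (circles) and day 2 (squares), with bars for the standard error from edgeR (3 against 3 libraries). On day 0 the values lie between -0.21 (Bst2) and 1.27 (Mx1) and on day 2 between 0.74 (Samhd1) and 4.46 (Ifi44), and Rsad2 was not tested on either day.

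The number of members called on day 2 changed with the setting. With LIP 90 kept, it was 10 with no filter on low counts, 8 with DESeq2 and 9 with one fit over 12 libraries, where 662, 485 and 775 genes were called in all. Without LIP 90, 9 members passed the adjusted threshold and 2014 genes did so in all, with adjusted p-values from 0.00139 (Ifi27l2a) to 0.0557 (Mx1, not called) in edgeR's quasi-likelihood test, and Rsad2 then passed the filter (log2 fold change 3.87 ± 0.77, adjusted p = 0.0118, and 0.0107 to 0.554 over the 6 alternatives that tested it). The median log2 fold change was 2.46 without LIP 90. The levels of LIP 90 lay above every CTL library in 10 of 10 members, for Rsad2 at 5 counts against 4 in CTL 92. Those of LIP 97 did so in 10 and those of LIP 96 in 9. For all genes this share was counted only for the LIP libraries together (10.9% of 14041 genes). Of the B cell markers, 7 were tested on day 2, and all 7 were higher in LIP, 0 of them at an unadjusted p under 0.05, while in LIP 90 3 of the 8 were at 0. Without any of the other 5 libraries, 0 members were called. LIP 97 held the highest value of all 10 members on day 2 and CTL 93 the lowest.

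**Figure D3:**
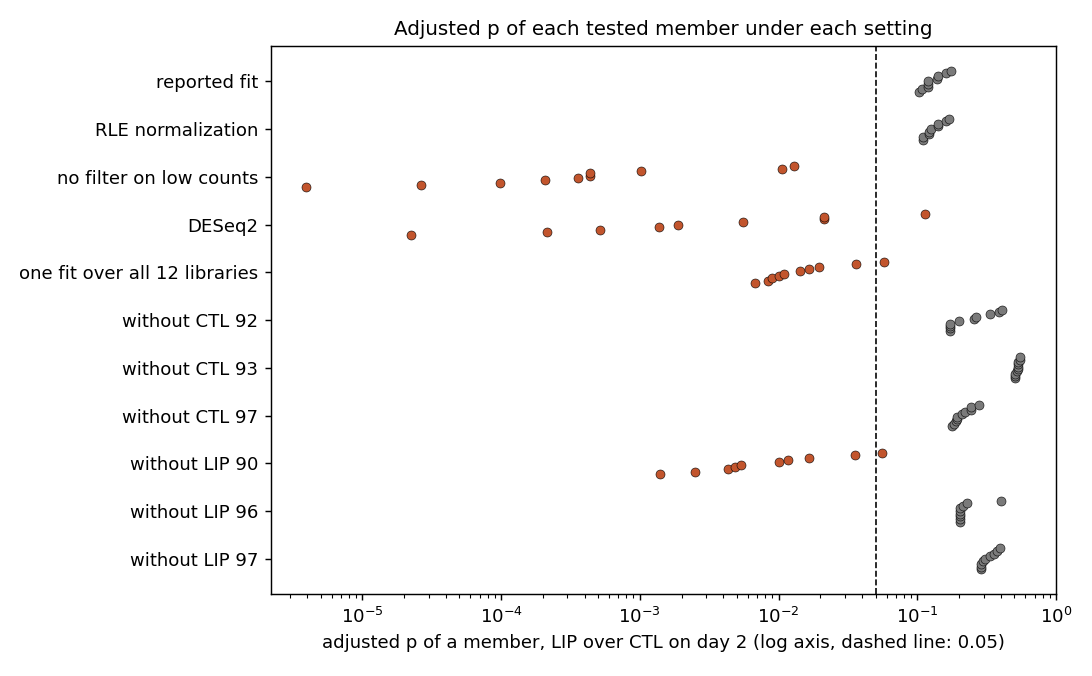
Adjusted p (x axis, log scale) of each tested member for LIP over CTL on day 2 under the reported fit and 10 alternatives (y axis), each point being 1 member and the dashed line 0.05. The points of the reported fit lie between 0.103 and 0.174, and points fall left of the line with no filter on low counts (10 members), DESeq2 (8), one fit over 12 libraries (9) and without LIP 90 (9).

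After 2 days of culture, members were called in both directions in CTL and mainly upward in LIP. In CTL, 4 of 9 tested members rose (Bst2, Ifi27l2a, Eif2ak2 and Samhd1, against 36.2% of 14621 genes) and 3 fell (Cmpk2, Xaf1 and Rtp4, against 34.7%), at an adjusted p under 0.05 in edgeR's quasi-likelihood test. In LIP, 7 of 10 rose (Ifi44, Ifi27l2a, Eif2ak2, Bst2, Mx1, Samhd1 and Xaf1, against 36.1% of 14310 genes) and 1 fell (Rtp4, against 35.4%). Over both directions, 7 of 9 members in CTL and 8 of 10 in LIP were called, against 70.8% and 71.5% of all genes, so that the number of members called was near that of all genes in both groups. Their median log2 fold change was 1.09 in CTL (all genes -0.013) and 2.09 in LIP (all genes 0.0083). The CTL median was 0.40 without CTL 92 of day 2, 0.64 without CTL 89 of day 0 and, with Rsad2 also tested, 0.65 with no filter on low counts and 0.64 with one fit over 12 libraries. Both comparisons share libraries with those of LIP over CTL, and the days hold different label numbers within a group.

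**Figure D4:**
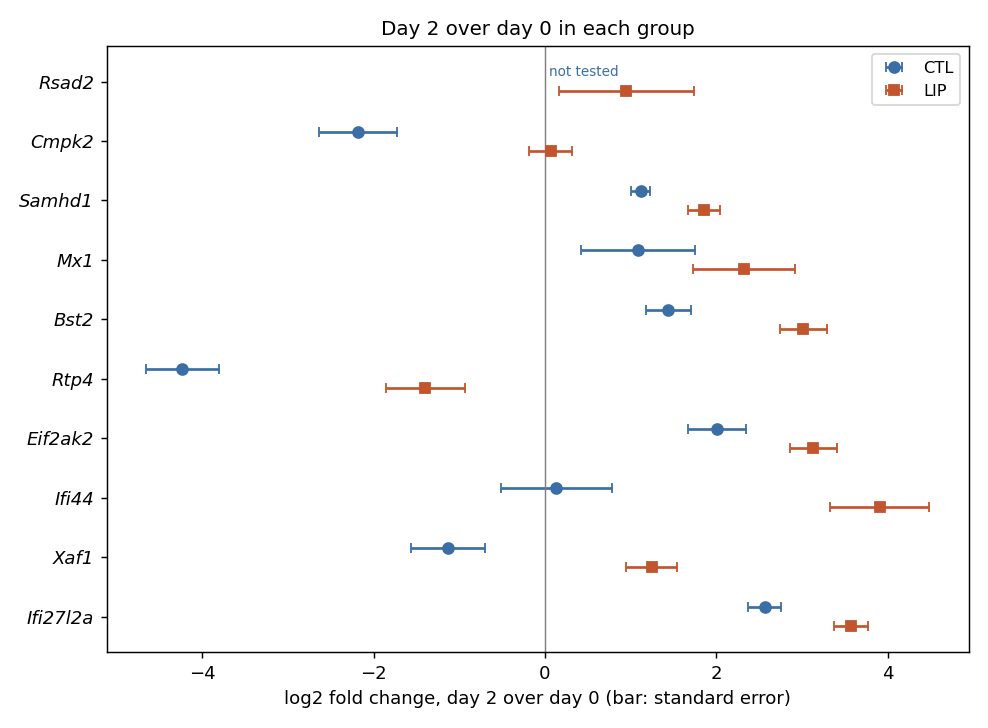
Log2 fold change of day 2 over day 0 (x axis) for each member (y axis) in CTL (circles) and LIP (squares), with bars for the standard error from edgeR (3 against 3 libraries). Ifi27l2a, Eif2ak2, Bst2 and Samhd1 lie to the right of 0 in both groups, Rtp4 lies to the left in both (-4.23 and -1.40), and Xaf1 lies on opposite sides (-1.13 in CTL and 1.24 in LIP).

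The difference of the LIP effect between the days was tested as an interaction over the 12 libraries. It was positive for all 10 members (49.9% of 15475 genes were), with a median of 1.502 on the log2 scale against -0.0015 over all genes. None passed the adjusted threshold in edgeR's quasi-likelihood test (0 of 10, against 0.0517% of all genes), the smallest adjusted p being 0.0889 for Cmpk2. At an unadjusted p under 0.05, 8 were positive (8.65% of all genes), all but Rsad2 and Mx1. DESeq2 called 6 members and 520 genes in all, and without LIP 90 of day 2 the quasi-likelihood test called 7 members and 1596 genes.

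The other genes of the pathway were taken from lists. Of 9 interferon genes, Ifnb1, Ifna1, Ifne, Ifnl2 and Ifnl3 had 0 counts in every library, Ifna2 and Ifna4 did not exceed 0.0894 CPM, and Ifnk was at 0.113 to 1.65 CPM. Ifng, which encodes interferon-γ, was the only one tested on day 2. It was at 40.5, 28.8 and 16.1 CPM in CTL 92, 93 and 97 and at 21.3, 11.5 and 6.99 CPM in LIP 90, 96 and 97, with overlap and a log2 fold change of -1.10 ± 0.42 (unadjusted p = 0.0275, where 8.2% of all genes were lower at an unadjusted p under 0.05, and adjusted p = 0.248, edgeR quasi-likelihood test, Benjamini-Hochberg). Its lowest value of day 2 was in LIP 97, the library with the highest values of all members. Its highest was in CTL 92, where the members summed to 1739 CPM, against 1249 and 1480 CPM in CTL 93 and 97. The part of Ifng in the levels of the members was not tested.

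Of the receptors, Ifnar1, Ifnar2, Ifngr1 and Ifngr2 were tested, and Ifnar2 was higher on day 2 at an unadjusted p under 0.05 (log2 fold change 0.42 ± 0.18). On day 0 Ifngr1 was lower at that threshold (-0.28 ± 0.10), as were 7.2% of all genes. Among the transducers, the interferon regulatory factor Irf7 (2.68 ± 0.52), Stat2 (1.26 ± 0.24) and Irf9 (0.81 ± 0.25) were higher on day 2 at an unadjusted p under 0.05, and Jak1, Jak2, Tyk2, Irf1, Irf2 and Irf3 lay between -0.15 and 0.24. Irf7 was at 23.3, 6.68 and 11.3 CPM in CTL 92, 93 and 97 and at 47.0, 72.3 and 149 CPM in LIP 90, 96 and 97, without overlap. On day 0 Irf7 was higher (0.30 ± 0.09) and Irf2 (-0.32 ± 0.07) and Jak1 (-0.22 ± 0.08) were lower at that threshold. Of 5 feedback genes, all 5 had positive log2 fold changes on day 2, 0 passed the adjusted threshold and 3 had an unadjusted p under 0.05 (8.33% of all genes were higher at that threshold), namely Isg15 (3.79 ± 0.46), the deconjugase Usp18 (2.94 ± 0.42) and the phosphatase Ptpn2 (0.48 ± 0.11), whereas Socs1 (0.12 ± 0.13) and Socs3 (0.63 ± 0.30) did not pass. On day 0 Socs3 was higher at that threshold (0.23 ± 0.10).

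Of 42 other interferon-induced genes, 36 were tested on day 2, and 31 were higher and 0 lower at an unadjusted p under 0.05 (8.33% and 8.2% of all genes), with a median log2 fold change of 1.01. The highest were Oas1a (3.47 ± 0.73), Oasl1 (2.83 ± 0.36), Isg20 (2.66 ± 0.63), Oas3 (2.49 ± 0.50) and Ifit1 (2.45 ± 0.56), and the lowest past that threshold were Znfx1 (0.42 ± 0.12), Irgm1 (0.55 ± 0.20), Gbp3 (0.62 ± 0.21), Adar (0.63 ± 0.16) and Dtx3l (0.71 ± 0.19). None of these lists had a gene past the adjusted threshold on day 2 in edgeR's quasi-likelihood test, where 0 of 14041 genes had. On day 0, 39 were tested, and 3 were higher (Oas1a, Dhx58 and Lgals3bp) and 1 was lower (Gbp2), near the shares of all genes (6.67% and 7.2%), with a median of 0.05. The difference of the LIP effect between the days was positive at an unadjusted p under 0.05 for 28 of 40 (8.65% of all genes) and negative for 0. It ran highest for Ifi44l (4.75 ± 1.44), Oas2 (3.95 ± 1.16), Oasl1 (3.20 ± 0.58), Oas1a (2.80 ± 0.84) and Ifit1bl1 (2.45 ± 0.99) and lowest, among those 28, for Adar (0.48 ± 0.18), Irgm1 (0.53 ± 0.23), Znfx1 (0.57 ± 0.14), Trim25 (0.58 ± 0.22) and Parp9 (0.75 ± 0.22). The antiviral ADP-ribosyltransferase Parp12, named after its value was seen, alone passed the adjusted threshold (2.42 ± 0.30, adjusted p = 0.0136, edgeR quasi-likelihood test, Benjamini-Hochberg).

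With culture, 11 of 38 tested other interferon-induced genes rose and 15 fell in CTL (adjusted p under 0.05, edgeR), near the shares of all genes (36.2% and 34.7%), with a median log2 fold change of -0.25. In LIP 22 of 40 rose and 7 fell, against 36.1% and 35.4% of all genes, with a median of 0.90. In CTL the largest rises were those of Ly6a (7.26 ± 0.43), Ifitm3 (3.66 ± 0.47), Gbp2 (2.42 ± 0.13), Mx2 (1.77 ± 0.38) and Igtp (1.32 ± 0.11), and the largest falls those of Ifit1bl1 (-7.32 ± 0.39), Oas2 (-5.50 ± 0.62), Parp12 (-2.74 ± 0.23), Slfn5 (-2.68 ± 0.21) and Ifit1 (-2.09 ± 0.35). In LIP they were those of Ly6a (7.91 ± 0.18), Ifitm3 (3.66 ± 0.43), Gbp2 (3.40 ± 0.18), Oas3 (3.08 ± 0.31) and Mx2 (2.93 ± 0.38), and of Ifit1bl1 (-4.86 ± 0.49), Oas2 (-1.56 ± 0.59), Slfn5 (-1.35 ± 0.31) and Sp100 (-0.67 ± 0.13), while Ifit3b (-1.77 ± 0.72) passed only the unadjusted threshold.

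Of the upstream genes, Ifng rose with culture by a log2 fold change of 3.14 ± 0.39 in CTL and 2.09 ± 0.41 in LIP. The receptor genes Ifnar1 and Ifngr1 fell in both groups, by 0.62 and 1.77 on the log2 scale in CTL and by 0.47 and 1.27 in LIP, and Ifnar2 fell in CTL (by 0.50). Of the transducers, Jak2 rose in both groups (2.62 ± 0.17 in CTL and 2.54 ± 0.13 in LIP), and Jak1 (-1.27 ± 0.09 and -1.19 ± 0.11), Tyk2 (-0.52 ± 0.10 and -0.39 ± 0.11) and Irf3 (-0.65 ± 0.12 and -0.55 ± 0.10) fell in both. Irf7 fell by 1.62 in CTL (SE 0.32), where its log2 difference in LIP was 0.77 ± 0.36 without passing the threshold, and Stat2 rose in both (0.82 ± 0.18 and 1.99 ± 0.17). Irf9 and Irf2 fell in CTL (-0.68 ± 0.14 and -0.31 ± 0.10), where their log2 differences in LIP were 0.05 ± 0.22 and 0.01 ± 0.14 without passing the threshold. Irf1 rose in LIP (0.50 ± 0.10), and its log2 difference in CTL was 0.22 ± 0.13 without passing it. Of the 5 feedback genes, Socs1 and Ptpn2 rose in CTL, and Isg15 (4.57 ± 0.49), Usp18 (3.22 ± 0.39), Socs1 (1.42 ± 0.13) and Ptpn2 (1.16 ± 0.10) rose in LIP.

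**Figure D5:**
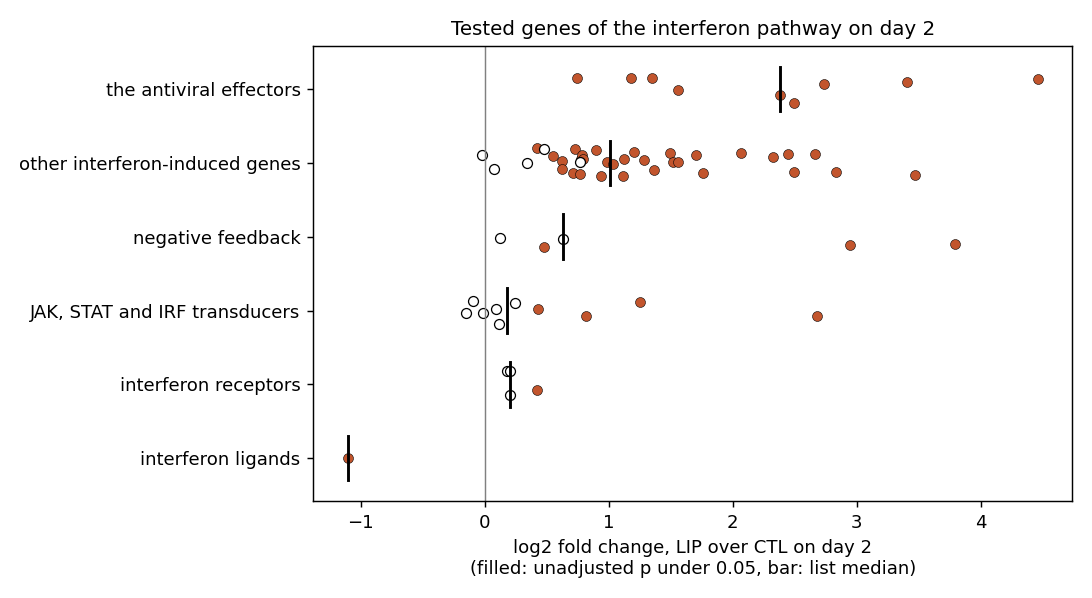
Log2 fold change of LIP over CTL on day 2 (x axis) of the tested genes in 6 lists (y axis), where each point is a gene, filled points have an unadjusted p under 0.05 and the bar is the list median. The medians are 2.38 for the antiviral effectors, 1.01 for the other interferon-induced genes, 0.63 for feedback genes, 0.18 for transducers and 0.20 for receptors, and the only tested ligand, Ifng, lies at -1.10.

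The genes whose level most resembled the mean of the members over the 6 libraries of day 2 were Samd9l (Pearson's r = 0.997), Sp100 (0.996), Trim25 (0.996), Irf7 (0.996) and Trim34a (0.995), among 10784 genes with a mean of at least 5 CPM. Over the 6 libraries of day 0 they were Gbp10 (0.992), A130012E19Rik (0.990), Ciapin1 (0.988), Pdrg1 (0.988) and Tbl3 (0.984), among 10871 genes. These r values were the highest of all genes examined, over points that share the same libraries and groups, and they are given as a description.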

How the data were processed

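Per gene and library, the authors deposited unnormalized expected counts made by RSEM 1.3.0 (Bowtie2), after FastQC 0.11.9 and trimming (Trimmomatic 0.38 in the submitters' processing notes; the study's methods name another version and HISAT2 on GRCm39). The library kit was directional. The annotation release is not given in the sources used here. The tables the authors deposited for each day were used for gene symbols, which are text, and their fold changes and p-values were not used. In the day 2 table, 2 columns of no labelled sample were not used.

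Libraries were grouped by their titles. Expected counts were rounded to whole numbers (73267 values were not whole) and tested in edgeR 4.0.16 (R 4.3.3) by its quasi-likelihood test, after filterByExpr and TMM normalization, with Benjamini-Hochberg adjustment over all genes tested in each comparison. The comparisons were LIP over CTL on each day, day 2 over day 0 in each group, and their interaction. Each p-value sets a difference between groups against the estimated spread between these libraries, which may be mice or pools. Groups were called separate, or without overlap, when every library of 1 group lay above every library of the other.

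Named genes were the 10 members, the tested receptors, transducers and feedback genes, the ligands, the 5 highest and 5 lowest other interferon-induced genes past an unadjusted p of 0.05 in each comparison, and the 5 genes most like the mean of the members' standardised log2 CPM on each day. The result for 1 transducer is not reported here. The members and lists were chosen with earlier results of these data known. Marker lists covered CD4 and CD8 T cells, B cells, myeloid cells, plasmacytoid dendritic cells, NK cells, erythroid cells, pancreatic acinar cells and heat shock genes. Scripts were tested on simulated data. Promoter windows came from GRCm39 and GENCODE M39, which held 54749 of the gene records. Figures were drawn with matplotlib 3.10.9 in Python 3.11.15. Alternatives were RLE normalization, no filter on low counts, DESeq2 1.42.0, one fit over 12 libraries and leaving out each library in turn. A fit over 12 libraries with the label number as a block was added after seeing the data.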

Additional observations from a re-analysis of the deposited data

Results flagged for a closer look

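The effect of LIP differed between day 2 and day 0 at an unadjusted p under 0.05 for 8 of 10 members, by the interaction term of edgeR's quasi-likelihood test, and for 0 at an adjusted p under 0.05. Of all 15475 genes, 8.65% were positive at the unadjusted threshold and 0.0517% passed the adjusted threshold in either direction. The difference on the log2 scale was 3.76 for Ifi44 (unadjusted p = 0.00241), 2.83 for Rtp4 (0.00229), 2.37 for Xaf1 (0.00156), 2.24 for Cmpk2 (0.00109), 1.57 for Bst2 (0.00214), 1.12 for Eif2ak2 (0.0430), 1.00 for Ifi27l2a (0.00420) and 0.73 for Samhd1 (0.00626). All 8 were larger on day 2, and their adjusted p-values ranged from 0.0889 to 0.295.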

How the results depend on the processing

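On day 2 the number of members higher in LIP at an adjusted p under 0.05 was 0 in the reported fit and with RLE normalization, 10 with no filter on low counts, 8 with DESeq2 and 9 with one fit over 12 libraries, and 0 to 9 when 1 library was left out, the 9 being without LIP 90. For the difference between days it was 0 as reported and with RLE, 8 with no filter and 6 with DESeq2, and 0 to 7 on leaving out 1 library (7 without LIP 90 of day 2, 1 without CTL 92 of day 2). The number called lower with culture in LIP was 1, and 0 to 1 on leaving out 1 library (0 without LIP 92 or 94 of day 0 or LIP 96 of day 2). Over all genes, the day 2 count was 0 as reported, 662 with no filter, 485 with DESeq2, 775 with one fit and 2014 without LIP 90. The cause was not tested. The median over the members kept its sign under every one of these alternatives in every comparison, at 0.27 to 0.43 for LIP over CTL on day 0 and 2.02 to 3.14 on day 2, 0.40 to 1.23 with culture in CTL and 1.88 to 2.33 in LIP, and 1.06 to 2.12 for the difference between days. On leaving out 1 library, single values that changed sign were those of Cmpk2 (-0.036 to 0.32) and Samhd1 (-0.020 to 0.043) on day 0, negative without CTL 88, of Ifi44 with culture in CTL (-1.28 to 0.65), negative without CTL 92 of day 2, and of Cmpk2 with culture in LIP (-0.15 to 0.22), negative without LIP 93 of day 0 or LIP 97 of day 2, and none of them was called. No paired analysis was possible within a comparison of 2 groups because they share fewer than 2 label numbers. One fit over 12 libraries with the label number as a replicate block was added after seeing the data, and leaves 1 residual degree of freedom. Deviations from the group means of libraries with the same number correlated at -0.0054, -0.055, 0.10 and -0.044 (92, 93, 94 and 97, over 15475 genes). With a single pair of libraries behind each value, this cannot show whether they share more than a number. With this block 0 members were called on day 0, 10 higher in LIP on day 2, 4 higher and 2 lower with culture in CTL, 7 higher and 0 lower in LIP, and 8 higher for the difference between days (median 2.48). Of all 15475 genes, 61, 1404, 6847, 6884 and 550 were called in these comparisons, in the same order and in either direction. Samhd1 was then at -0.019 on day 0 and Rtp4 at 0.020 with culture in LIP, both uncalled. Rsad2 had 0 to 41 counts a library, which kept it from being tested between groups on either day.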

Other observations

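Summed levels of marker genes were as follows in the libraries of each group. The 8 CD4 T cell markers were at 2651 to 2840 CPM in CTL and 2477 to 2703 CPM in LIP on day 0, and at 4049 to 4396 CPM in CTL and 4001 to 4274 CPM in LIP on day 2. Both CD8 T cell markers together stayed between 4.42 and 13.2 CPM, the highest being a LIP library of day 2. The 10 myeloid markers were at 5.89 to 11.6 CPM in CTL and 8.66 to 13.6 CPM in LIP on day 0, and at 3.40 to 5.06 CPM and 2.50 to 5.14 CPM on day 2. The 6 NK cell markers were at 5.29 to 12.47 CPM in CTL and 11.0 to 14.8 CPM in LIP on day 0, and at 0.954 to 1.47 CPM in CTL and 1.34, 3.46 and 2.46 CPM in LIP 90, 96 and 97 on day 2. Of these, Eomes was the only one tested on day 2, where it was at 0.954 to 1.05 CPM in CTL and 1.25 to 2.33 CPM in LIP, without overlap (log2 fold change 0.91 ± 0.37, unadjusted p = 0.0371, adjusted p = 0.274, edgeR quasi-likelihood test, Benjamini-Hochberg), and Klra4 and Klra8 were at 0 in every library of that day. The 8 plasmacytoid dendritic cell markers, which include Bst2, were at 59.9 to 76.4 CPM on day 0. The 6 erythroid markers did not exceed 3.76 CPM, and the 8 pancreatic acinar markers were at 0.120 to 0.301 CPM in CTL and 0.137 to 23.2 CPM in LIP on day 0 and at 2.98 to 10.1 CPM on day 2. The part of any of these cells in the levels of the members was not tested.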
